A study of Mus musculus with 24 samples.

Results

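Cp, Serpinf1, Sod3, Agt and Htra1 are genes of secreted proteins whose RNA was higher in E0771 mouse breast cancer cells with a knockdown of Ptn, the gene of pleiotrophin, than in their controls. These 5 of the 12091 genes measured were chosen by their higher values in E0771shPTN than in E0771shCtrl cells, so the values of that contrast are a description of them and carry no test. RNA was sequenced from 24 samples in 8 groups of 3. E0771 is a line from a mammary adenocarcinoma of C57BL/6 mice, and E0771-LG was derived from a lung metastasis of E0771. E0771shPTN and E0771-LGshPTN cells carried 1 shRNA construct against Ptn, whereas E0771shCtrl and E0771-LGshCtrl cells carried a pLKO.1-puro control construct directed at EGFP, and all 4 were populations selected with 3 µg/ml puromycin for 6 wk. 4T1 tumors grew from cells implanted into female BALB/c mice at 8 wk of age, and MMTV-PyMT tumors arose in female FVB/N mice that express polyoma middle T antigen from the mouse mammary tumor virus promoter and were treated from 8 to 12 wk of age. Both tumor models received 15 mg/kg of 3B10, an antibody against PTN, or of C44, a control mouse IgG. The 4 experiments asked which RNAs change when PTN is depleted in cells or blocked in tumors.

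The cell and MMTV-PyMT samples held 15.63 to 21.12 M reads on genes, with a median of 18.25 M, and their values are on the log2 CPM scale (counts per M reads). The 4T1 values appear normalized for gene length, since relative to the E0771-LG values they fell with it, but that step is not stated. Their depth is unknown, and levels were compared within that model only. A single construct and a single control per line mean that an effect of Ptn loss and one of the construct cannot be told apart. The methods of the study call the 3 samples of a group biological replicates. Deposited labels of the tumor samples each hold a different number, but whether it names an animal is not stated. The culture of each cell sample is not given. P-values thus measure the spread between these samples.

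Secreted proteins set much of the chemistry outside a cell. Ceruloplasmin (Cp) carries copper in plasma and oxidizes ferrous iron so that transferrin can bind it, and extracellular superoxide dismutase (Sod3) is a copper and zinc enzyme that removes superoxide in the matrix. Pigment epithelium-derived factor (Serpinf1) and angiotensinogen (Agt) both have the serpin fold without inhibiting proteases, the first being known as an inhibitor of vessel growth and the second as the precursor of angiotensin peptides, whereas Htra1 is a serine protease that cuts matrix proteins.

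Ptn itself was measured first. It was 2.90, 2.18 and 2.28 log2 CPM in E0771shCtrl replicates 1 to 3 and −0.63, 0.25 and 0.53 in E0771shPTN, and 3.65, 4.51 and 3.74 in E0771-LGshCtrl against 1.42, 0.98 and 1.38 in E0771-LGshPTN. Each knockdown sample lay below each control of its line, as labelled. Ptn fell by 2.40 on the log2 scale in E0771 (SE 0.37, limma with Benjamini-Hochberg adjusted p = 0.00159) and by 2.71 in E0771-LG (SE 0.28, adjusted p = 6.3e-05). The controls of E0771-LG exceeded those of E0771 by 1.51 (SE 0.28, limma adjusted p = 0.0012). In MMTV-PyMT tumors Ptn was 2.80, 2.73 and 3.42 with C44 and 3.28, 2.95 and 4.22 with 3B10, groups that overlap, and in 4T1 tumors, on the scale of that model, −0.19, −0.65 and −0.12 with C44 and −0.76, 0.86 and 0.37 with 3B10, which also overlap and were not tested, since fewer than 3 of the 6 samples reached 1 off the log scale.

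The genes lie on 5 chromosomes. On GRCm38, Cp (ENSMUSG00000003617) is at chr3:19957054-20009145 on the plus strand, Sod3 (ENSMUSG00000072941) at chr5:52363791-52371418 on the plus strand and Htra1 (ENSMUSG00000006205) at chr7:130936111-130985660 on the plus strand. The serpins lie on the minus strand, Serpinf1 (ENSMUSG00000000753) at chr11:75409769-75422701 and Agt (ENSMUSG00000031980) at chr8:124556534-124569706. Exons of Cp share 108 of 9566 bases with those of Hps3 on the opposite strand. Whether the counting used strand is not given in the sources used here, so reads in those bases cannot be told apart. Hps3 averaged 5.07 ± 0.05 log2 CPM (SD, n = 3) in E0771shCtrl and 4.60 ± 0.17 in E0771shPTN, the opposite order from Cp. Htra1 overlaps Fgfr2 with 0 exonic bases in common.

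Because 5 genes were high in the same samples, the letters before their starts were compared. RefSeq start regions (GRCm38.p6) were found for 4 of the 5 genes, all but Sod3, and bases up to the first annotated base of the gene are shown 5′ to 3′ on its strand, with matched motifs in capitals. The Cp region is chr3:19956804-19957053, that of Serpinf1 chr11:75422702-75422873, that of Agt chr8:124569707-124569956 and that of Htra1 chr7:130935953-130936110.
Cp: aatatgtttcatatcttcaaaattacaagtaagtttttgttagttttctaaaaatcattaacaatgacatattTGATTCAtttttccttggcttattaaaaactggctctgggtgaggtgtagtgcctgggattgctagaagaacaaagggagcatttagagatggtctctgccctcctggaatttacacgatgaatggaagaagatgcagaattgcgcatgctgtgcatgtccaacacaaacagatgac
Serpinf1: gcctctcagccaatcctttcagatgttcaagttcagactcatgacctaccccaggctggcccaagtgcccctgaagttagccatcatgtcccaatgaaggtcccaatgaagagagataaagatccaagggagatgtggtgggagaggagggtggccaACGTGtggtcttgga
Agt: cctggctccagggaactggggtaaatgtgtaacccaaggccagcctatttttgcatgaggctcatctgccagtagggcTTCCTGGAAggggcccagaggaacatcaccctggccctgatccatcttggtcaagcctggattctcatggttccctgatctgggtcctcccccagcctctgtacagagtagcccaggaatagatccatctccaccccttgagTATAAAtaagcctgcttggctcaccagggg
Htra1: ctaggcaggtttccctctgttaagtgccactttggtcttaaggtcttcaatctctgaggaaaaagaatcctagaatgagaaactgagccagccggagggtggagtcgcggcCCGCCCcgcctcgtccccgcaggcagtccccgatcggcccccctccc
The capitals mark TGATTCA in Cp, ACGTG in Serpinf1, TTCCTGGAA and TATAAA in Agt, and CCGCCC, which is GGGCGG on the opposite strand, in Htra1. No motif was found in more than 1 of the 4 genes. The search covered 250 bases before the start on both strands, for 11 patterns in 32851 start regions of 27025 gene symbols. TATAAA was in 12.4% of all regions, GGGCGG in 32.7%, the AP-1 pattern TGANTCA in 6.75%, the STAT pattern TTCNNNGAA in 7.02% and the hypoxia pattern ACGTG in 16.6%. The antioxidant pattern TGACNNNGC, in 10.2% of regions, also matched Htra1 at 68 bases before the start, inside the annotated gene and not shown. The other patterns had no match in these windows, namely TTGCNNAA for C/EBP (9.56% of regions), TGCGCNC and TGCACNC for metal response (12.5% and 10.4%) and the NF-kappa-B (1.41%) and interferon response (2.98%) patterns. Over the 250 bases searched, GC content was 37.2% in Cp, 51.6% in Serpinf1, 55.6% in Agt and 64.8% in Htra1, with a median of 52.4% over all regions. For Serpinf1 and Htra1 these bases include some inside the annotated gene that are not shown. A match is a description of letters and was tied to no binding.

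In E0771 knockdown, 924 of 10394 genes tested rose (8.89%) and 1216 fell (11.7%; limma, Benjamini-Hochberg adjusted p under 0.05). The 2140 calls became 1268 without E0771shCtrl replicate 2, 1171 without E0771shCtrl replicate 3 and 1238 without E0771shPTN replicate 3. Ordered by log2 fold change among the 924, Agt was 1, Cp 3, Serpinf1 4, Sod3 7 and Htra1 56, places that follow from how the genes were named. The place of Agt also depends on the offset. With a pseudocount of 1 it was at 1.73, below Cp (3.54), Serpinf1 (3.41), Sod3 (2.65) and Htra1 (1.81). Sla stood between Agt and Cp with a log2 fold change of 5.05, C1qtnf1 (3.66) and Pdgfc (3.64) between Serpinf1 and Sod3, and Htra3, a protease of the same family, at 54 with 1.87. All 5 passed the filter on low values, a value of at least 1 CPM in at least 3 of 6 samples, but Sod3 and Agt had 0 control samples and Cp and Serpinf1 had 1 control sample at that level, so these 4 passed through the group in which they were high.

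**Figure D1:**
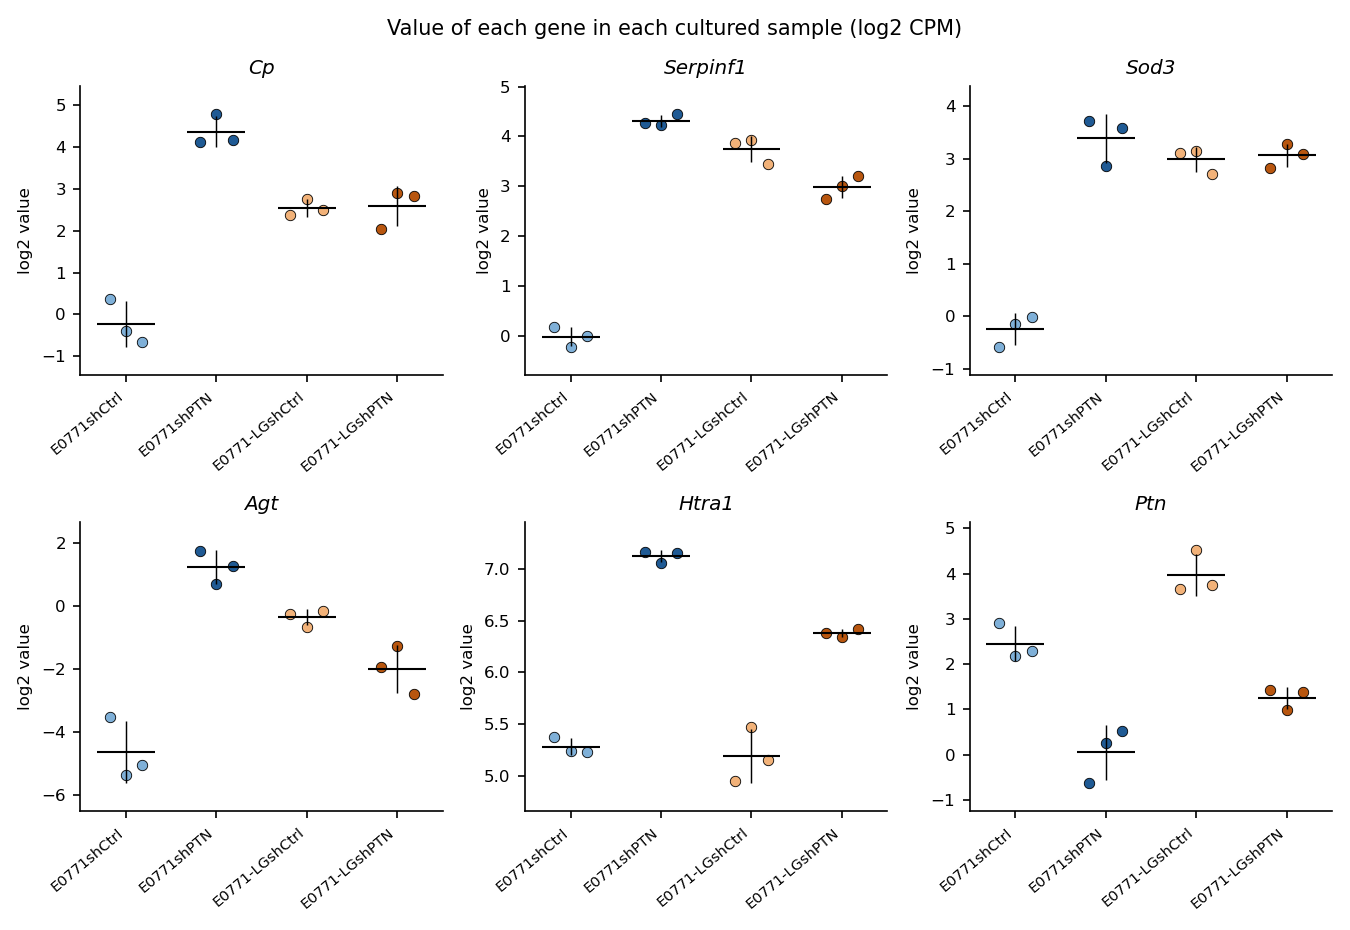
Log2 CPM of the 5 genes and Ptn in each of the 12 cultured samples, by group, with a point per sample, a bar at the mean and a line for the SD (n = 3). Cp, Serpinf1, Sod3 and Agt are lowest in E0771shCtrl, Htra1 is higher in both shPTN groups than in their controls, and Ptn is lower in both shPTN groups.

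In E0771-LG knockdown, whose samples did not choose the genes, 4 of the 5 passed the filter. Of these, 1 rose (Htra1) and 1 fell (Serpinf1), where 24.3% of 10405 genes rose and 22.1% fell, so the counts are near those of any genes. The 2531 genes that rose became 1657 without E0771-LGshPTN replicate 2. Cp and Sod3 did not pass the test, and Agt was below the filter. Between the controls of the lines, E0771-LG against E0771, 2004 of 10411 genes were higher (19.2%) and 3672 lower (35.3%), with a median log2 fold change of −0.15 over all genes. That split depends on the scaling: with median-of-ratios scaling 2847 were higher (50.1% of calls) and 2831 lower. The comparison between controls uses the E0771shCtrl samples that also chose the genes, so its values for them are again a description. In tumors no gene passed adjusted p under 0.05 with limma: 0 of 11361 in MMTV-PyMT (0%) and 0 of 11467 in 4T1 (0%), higher or lower. At an unadjusted p under 0.05 there were 307 genes in MMTV-PyMT, or 725 with all 24 samples in 1 fit, and 719 in 4T1, or 370 without 3B10 replicate 3 and 1302 without C44 replicate 3. Shares at that level given below thus move with single samples in 4T1. Limma voom on recovered reads, possible in MMTV-PyMT, called 0. In 4T1 limma called 6 genes with all 24 samples in 1 fit and 2 without 3B10 replicate 1.

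**Figure D2:**
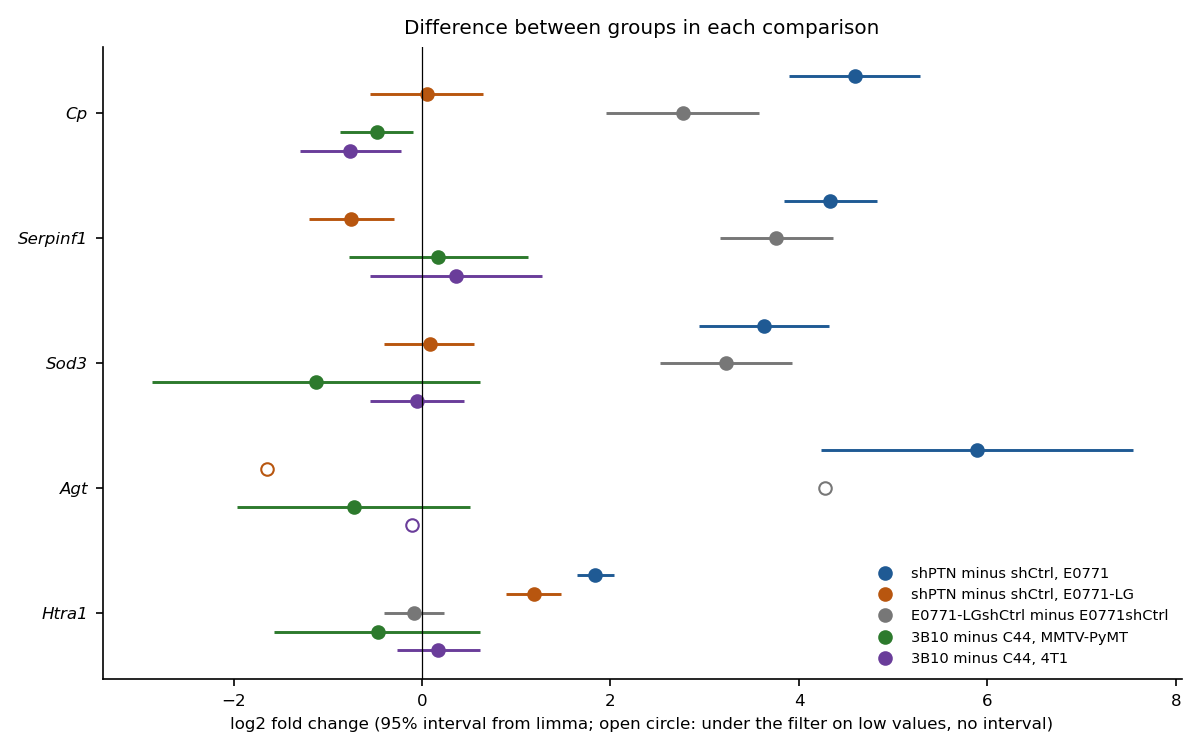
Log2 fold change of each gene in the 5 comparisons, with the 95% interval of limma as a line and open circles for genes below the filter on low values, which have no interval. The E0771 knockdown and the comparison of controls share the E0771shCtrl samples. In the E0771-LG knockdown Htra1 lies at 1.19 and Serpinf1 at −0.75.

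Among the metal-binding enzymes, Cp was 0.38, −0.40 and −0.66 log2 CPM in E0771shCtrl (22, 15 and 10 reads) and 4.13, 4.79 and 4.17 in E0771shPTN (337, 498 and 281 reads). The groups did not overlap, and E0771shPTN exceeded E0771shCtrl by 4.59 on the log2 scale (SE 0.31, 95% interval 3.89 to 5.28). A pseudocount of 1 gave 3.54. Pooled reads gave a ratio of 24.3 with an interval of 18.2 to 33.3, which like the other intervals on reads covers counting error only. In E0771-LG, Cp was 2.37, 2.77 and 2.49 in shCtrl and 2.05, 2.91 and 2.82 in shPTN. These groups overlapped, with shPTN both lowest and highest. The log2 fold change was 0.05 (95% interval −0.55 to 0.65, limma adjusted p = 0.892) and −0.17 after quantile normalization, so no direction is given. The E0771-LGshCtrl samples lay above the E0771shCtrl samples by 2.77 (SE 0.37).

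The level of Cp was lowest in E0771shCtrl cells and highest in MMTV-PyMT tumors. As reads per kilobase of exon per M reads (RPKM), its mean was 0.091 ± 0.0373 (SD, n = 3 here and in each group) in E0771shCtrl, 0.611 ± 0.0888 in E0771-LGshCtrl, 0.65 ± 0.191 in E0771-LGshPTN, 2.2 ± 0.596 in E0771shPTN, 72 ± 4.88 in MMTV-PyMT 3B10 and 101 ± 13.5 in MMTV-PyMT C44. In that order, only the E0771-LG groups did not differ beyond their spread. Tumors hold many cell types, and in whole tissue fewer cells of a type and less RNA per cell cannot be told apart.

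In both tumor models Cp was lower with 3B10. It was 9.99, 10.06 and 9.68 log2 CPM in MMTV-PyMT C44 and 9.46, 9.32 and 9.51 in 3B10, and on the 4T1 scale 8.95, 8.86 and 8.30 in C44 and 8.20, 8.08 and 7.53 in 3B10. Each 3B10 sample lay below each C44 sample of its model. The log2 difference was −0.48 in MMTV-PyMT (SE 0.17, limma adjusted p = 1, unadjusted 0.0197) and −0.76 in 4T1 (SE 0.23, limma adjusted p = 0.722, unadjusted 0.0119), which fail the correction. The exact two-sided permutation test gave p = 0.1 in each model, the smallest that 3 samples against 3 allow. Lower values without overlap were seen for 258 of 11361 genes in MMTV-PyMT (2.27%), 507 of 11467 in 4T1 (4.42%) and 17 of the 10890 tested in both models (0.156%). Cp was the only 1 of the 5 genes among each of these.

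Markers of other cell types in the tumors were summed beside Cp. By limma 0 of 8 epithelial, 0 of 8 macrophage, 0 of 4 leukocyte and 0 of 4 muscle markers tested were called in 4T1, in either direction. At unadjusted p under 0.05, as for Cp, the counts in that order were 5 of 8, 3 of 8, 2 of 4 and 4 of 4, where 719 of 11467 genes met it (6.27%), and in MMTV-PyMT they were 0 of 8, 0 of 8, 0 of 4 and 0 of 4. The 8 epithelial markers, all in the table and none at 0, summed to 3520, 3940 and 3900 off the log scale in C44 and to 5210, 5220 and 5520 in 3B10, with Krt18 the most abundant. The 8 macrophage markers, none at 0, summed to 4500, 4400 and 4900 in C44 and 3040, 4410 and 2810 in 3B10, led by C1qa, and these groups overlapped. The 4 leukocyte markers, none at 0 and led by Cd53 or Laptm5, summed to 734, 725 and 707 in C44 and 556, 628 and 467 in 3B10. In MMTV-PyMT the epithelial sums were 6050, 5480 and 4120 CPM in C44 and 4610, 5060 and 4220 in 3B10, and the groups overlapped, with none of the 8 at 0 and Krt8 the most abundant except in C44 replicate 3, led by Epcam. The 5 muscle markers of the table summed to 13.1, 12 and 27.3 in 4T1 C44, with Myh4 at 0 in replicates 2 and 3, and to 40.9, 179 and 268 in 3B10, with none at 0. Tnnt3 led in each but 3B10 replicate 2, led by Acta1. In 4T1, 2 of 11 fibroblast, 0 of 6 endothelial and 0 of 1 adipocyte markers had limma unadjusted p under 0.05, and 0 were called. The sums of these lists overlapped between C44 and 3B10. In MMTV-PyMT the sums of every marker list with genes in the table overlapped. The part of these markers in the Cp difference was not tested.

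**Figure D3:**
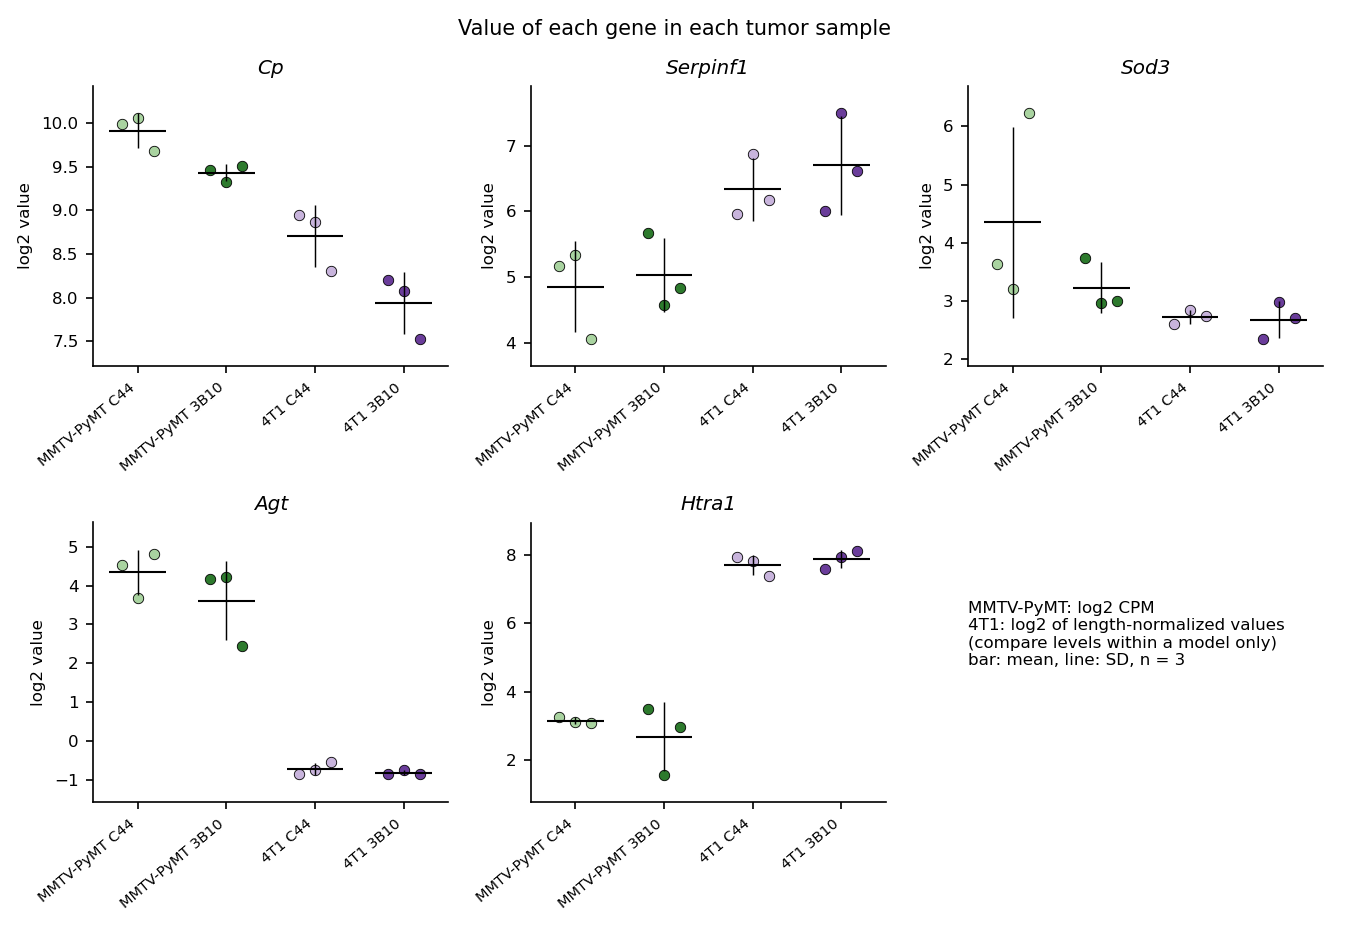
Values of the 5 genes in each tumor sample, as log2 CPM in MMTV-PyMT and as the deposited log2 values in 4T1. A point marks each sample, a bar the mean and a line the SD (n = 3). Cp is lower in each 3B10 sample than in each C44 sample of its model, and Sod3 in MMTV-PyMT C44 replicate 3 stands at 6.23.

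Sod3 was −0.58, −0.14 and −0.01 log2 CPM in E0771shCtrl (11, 18 and 16 reads) and 3.72, 2.85 and 3.58 in E0771shPTN (254, 130 and 187 reads). The groups did not overlap, with a log2 difference of 3.63 (SE 0.31, 95% interval 2.94 to 4.32) and a pooled ratio of 13 (9.59 to 18). A pseudocount of 1 gave a log2 difference of 2.65. In E0771-LG it was 3.10, 3.15 and 2.70 in shCtrl and 2.82, 3.27 and 3.09 in shPTN, which overlapped. The log2 fold change there was 0.08 (95% interval −0.40 to 0.55, limma adjusted p = 0.787), and −0.13 after quantile normalization. E0771-LGshCtrl exceeded E0771shCtrl by 3.23 (SE 0.32).

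Outside E0771shCtrl, the levels of Sod3 were close. Mean RPKM was 0.221 ± 0.0453 in E0771shCtrl, 2.13 ± 0.353 in E0771-LGshCtrl, 2.25 ± 0.346 in E0771-LGshPTN, 2.59 ± 0.832 in MMTV-PyMT 3B10, 2.88 ± 0.842 in E0771shPTN and 8.61 ± 9.93 in MMTV-PyMT C44. From E0771-LGshCtrl upward, each group overlapped with the next. The MMTV-PyMT C44 mean rests on replicate 3, with log2 CPM of 3.63, 3.20 and 6.23 (237, 177 and 1408 reads) against 3.73, 2.96 and 3.00 with 3B10. The difference of −1.12 (95% interval −2.87 to 0.62, limma adjusted p = 1) became −0.18 without that replicate. That sample also had the lowest sum of its group for each of the 7 marker lists with genes in the table. The sums were 1440 CPM against 2650 and 4000 for the 11 fibroblast markers, led by Col1a1, 419 against 664 and 800 for the 8 macrophage markers, led by Cd14, and 4120 against 6050 and 5480 for the 8 epithelial markers, led there by Epcam. They were 108 against 146 and 172 for the 6 endothelial markers, led by Pecam1, 92.5 against 116 and 119 for the 4 leukocyte markers, led by Laptm5, 7.57 against 31.1 and 12.2 for the 5 muscle markers, led there by Acta1, and 4.9 against 15.1 and 15.7 for the adipocyte marker Fabp4. None of these markers was at 0, and their part in the Sod3 value was not tested. In 4T1 tumors Sod3 was 2.60, 2.84 and 2.74 with C44 and 2.35, 2.98 and 2.70 with 3B10, a difference of −0.05 (95% interval −0.55 to 0.45, limma adjusted p = 0.989).

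Other genes of copper and iron handling were read as a list of 35, of which 31 were in the table. In E0771 knockdown 3 of 28 tested rose and 3 fell, with a median log2 fold change of −0.14 beside −0.03 over all genes. The counts of this and the next lists stand beside shares over all genes of 8.89% higher and 11.7% lower in E0771 knockdown, 24.3% and 22.1% in E0771-LG knockdown and 19.2% and 35.3% in the comparison of controls. Loxl2, a copper-dependent amine oxidase of the matrix, rose by 2.51 (SE 0.14, limma adjusted p = 2.34e-06) and the transferrin receptor Tfrc by 0.90 (SE 0.15, adjusted p = 0.00271). The copper importer Slc31a1 fell by 0.37, whereas Slc31a2 rose by 0.69 (SE 0.16, limma adjusted p = 0.0115). The 6 calls became 2 without E0771shCtrl replicate 2 and 3 without E0771shPTN replicate 3 or with all 24 samples in 1 fit. In E0771-LG knockdown 9 of 27 rose and 11 fell, with the list median and that of all genes both 0.05. The metal transporter Slc39a8 rose by 3.39 (SE 0.57, limma adjusted p = 0.000854), from a mean of −2.32 log2 CPM in E0771-LGshCtrl. Few reads lie behind that mean, and Slc39a8 passed the filter through the shPTN group. Metallothionein Mt3 rose by 2.77 (SE 0.32, limma adjusted p = 0.000115), and the copper pump Atp7a fell by 1.53 (SE 0.22, adjusted p = 0.000397) and Tfrc by 1.39 (SE 0.13, adjusted p = 4.22e-05). Tfrc thus rose in 1 line and fell in the other. Loxl2 (1.20), Slc31a2 (0.53) and Slc31a1 (−0.57) were called in E0771-LG in the same direction as in E0771. The difference between the lines was not tested. In the comparison of controls 7 of 27 were higher and 6 lower.

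Of 24 other genes that make or remove superoxide and peroxide, 21 were in the table and 19 were tested in cells. In E0771 knockdown 1 rose and 1 fell (median −0.03, the same as over all genes): the endoplasmic reticulum peroxidase Gpx8 rose by 0.64 (SE 0.14, limma adjusted p = 0.00809) and mitochondrial Sod2 fell by 0.30 (SE 0.08, adjusted p = 0.0213). The 2 calls became 1 without any 1 of the E0771shCtrl samples or without E0771shPTN replicate 3, and 0 with all 24 samples in 1 fit. In E0771-LG knockdown 11 of 19 rose and 1 fell, where 24.3% and 22.1% of all genes did, with a median of 0.34 beside 0.05. Among these, cytosolic Sod1 rose by 0.81 (SE 0.10, limma adjusted p = 0.000187), Gpx3 by 1.35 (SE 0.45, adjusted p = 0.0285), Prdx4 by 0.89 (SE 0.12, adjusted p = 0.000278) and Gpx4 by 0.87 (SE 0.12, adjusted p = 0.000364), and Prdx3 fell by 0.37. Sod3, the secreted dismutase, did not pass the test in the same samples. In the controls 3 of 19 were higher in E0771-LG and 7 lower.

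Among the serpins, Serpinf1 was 0.18, −0.22 and −0.01 log2 CPM in E0771shCtrl (19, 17 and 16 reads) and 4.27, 4.22 and 4.45 in E0771shPTN (372, 337 and 342 reads). The groups lay far apart, with a log2 difference of 4.33 (SE 0.22, 95% interval 3.84 to 4.83) and a pooled ratio of 20.7 (15.7 to 27.9). A pseudocount of 1 gave a log2 difference of 3.41. In E0771-LG it was 3.86, 3.93 and 3.44 in shCtrl (251, 298 and 201 reads) and 2.75, 3.01 and 3.20 in shPTN (142, 145 and 160 reads). Here each knockdown sample lay below each control. Serpinf1 fell by 0.75 (SE 0.20, 95% interval −1.20 to −0.30, limma adjusted p = 0.0116), and pooled reads gave a ratio of 0.584 (0.519 to 0.658). The call was lost with all 24 samples in 1 fit, where limma gave adjusted p = 0.0868. That was the highest limma adjusted p over the settings tried, and the lowest was 0.00204. E0771-LGshCtrl exceeded E0771shCtrl by 3.76 (SE 0.27).

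Mean RPKM of Serpinf1 was 0.409 ± 0.0571 in E0771shCtrl, 3.38 ± 0.521 in E0771-LGshPTN, 5.73 ± 1 in E0771-LGshCtrl, 8.45 ± 0.726 in E0771shPTN, 13.1 ± 5.34 in MMTV-PyMT C44 and 14.6 ± 6.1 in MMTV-PyMT 3B10. Only the last 3 of these groups had an overlap with a neighbour in the order. In MMTV-PyMT it was 5.17, 5.33 and 4.06 log2 CPM with C44 and 5.67, 4.58 and 4.84 with 3B10, a difference of 0.17 (95% interval −0.77 to 1.12, limma adjusted p = 1). In 4T1 it was 5.96, 6.88 and 6.17 with C44 and 6.00, 7.50 and 6.61 with 3B10, a difference of 0.36 (95% interval −0.55 to 1.27, limma adjusted p = 0.952). The groups overlapped in both models.

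Of 28 other serpins 12 were in the table. In E0771 knockdown 2 of 7 tested rose and 2 fell (median −0.02), and in E0771-LG knockdown 3 of 6 rose and 1 fell (median 0.15). With all 24 samples in 1 fit 1 call was left in each. Intracellular Serpinb6a rose by 0.78 in E0771-LG. In the controls 3 of 7 were higher in E0771-LG and 2 lower. Receptors and binding partners of the Serpinf1 protein were 5, with 4 in the table and 3 tested in cells. In E0771 knockdown 0 were called (limma, 1 at unadjusted p under 0.05, Rpsa with adjusted p = 0.0501), but 2 were with no filter on low values or without E0771shPTN replicate 2, and 1 with median-of-ratios scaling or with voom, a weighted fit, on recovered reads. In E0771-LG knockdown Rpsa, the laminin receptor, rose by 0.33 and Lrp6, a Wnt co-receptor, fell by 0.62. Only 1 of these 2 calls was left without E0771-LGshCtrl replicate 3, without E0771-LGshPTN replicate 2 and without E0771-LGshPTN replicate 3. In the controls 1 of 3 was higher in E0771-LG and 0 lower, while 3 were called without E0771-LGshCtrl replicate 3 and 2 under 6 of the 12 other settings, among them no filter on low values.

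Agt was the lowest of the 5 in cells. In E0771shCtrl it had 1, 0 and 0 reads (−3.52, −5.35 and −5.05 log2 CPM), and in E0771shPTN 65, 29 and 37 reads (1.76, 0.71 and 1.26). The pooled ratio of 131 reads to 1 was 134, with a counting interval of 23.7 to 5340. The fitted log2 difference of 5.89 depends on the offset, and a pseudocount of 1 gave 1.73. In E0771-LG it had 14, 12 and 16 reads in shCtrl (−0.25, −0.65 and −0.17 log2 CPM) and 5, 7 and 2 in shPTN (−1.94, −1.27 and −2.80). Each knockdown sample lay below each control, the opposite order from E0771. The pooled ratio was 0.327 (0.165 to 0.61) and the log2 difference −1.64, with p = 0.1 by the exact two-sided permutation test. Without the filter on low values limma gave −1.64 (SE 0.48, adjusted p = 0.0348). Against the E0771 controls, those of E0771-LG had 42 reads to 1, a ratio of 41.1 (6.98 to 1660).

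Mean RPKM of Agt was 0.0102 ± 0.0177 in E0771shCtrl, 0.13 ± 0.0723 in E0771-LGshPTN, 0.402 ± 0.0692 in E0771-LGshCtrl, 1.29 ± 0.466 in E0771shPTN, 7.43 ± 3.95 in MMTV-PyMT 3B10 and 11.3 ± 4.09 in MMTV-PyMT C44. The MMTV-PyMT groups overlapped, and the others did not overlap with their neighbours. Agt was 4.53, 3.68 and 4.81 log2 CPM with C44 and 4.18, 4.22 and 2.44 with 3B10, a difference of −0.72 (95% interval −1.96 to 0.51, limma adjusted p = 1) that was −0.14 without 3B10 replicate 3. In 4T1 tumors it was −0.85, −0.74 and −0.55 with C44 and −0.86, −0.74 and −0.85 with 3B10, below the filter and near the lowest value of that scale.

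Of 18 other genes of the renin-angiotensin system 10 were in the table. In E0771 knockdown 3 of 9 tested rose and 2 fell (median −0.01), led by the aminopeptidase Anpep, which fell by 0.87 (SE 0.11, limma adjusted p = 0.000412), and the peptidase Nln, which fell by 0.72 (SE 0.09, adjusted p = 0.000457). The 5 calls became 3 without E0771shCtrl replicate 2, without E0771shCtrl replicate 3 and without E0771shPTN replicate 3, and 2 with all 24 samples in 1 fit. The renin receptor Atp6ap2 rose by 0.43 in E0771 and by 0.61 in E0771-LG. In E0771-LG knockdown 2 of 8 rose and 1 fell (median 0.13), with Ctsa at 0.58 and the aminopeptidase Lnpep at −0.67. Ace, which makes angiotensin II, had a log2 fold change of −0.02 in E0771 knockdown and did not pass the test, and it was 1.71 lower on the log2 scale in E0771-LG controls than in E0771 controls (SE 0.54, limma adjusted p = 0.0222), where 1 of 9 genes of the list was higher and 6 lower.

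Htra1 was the most abundant of the 5 per kilobase in cells and was higher with shPTN in both lines. It was 5.38, 5.24 and 5.23 log2 CPM in E0771shCtrl and 7.16, 7.06 and 7.15 in E0771shPTN, a difference of 1.84 (SE 0.09, 95% interval 1.64 to 2.04) and a pooled ratio of 3.58 (3.41 to 3.76). In E0771-LG it was 4.95, 5.47 and 5.16 in shCtrl and 6.38, 6.34 and 6.42 in shPTN. Each knockdown sample lay above each control. In E0771-LG, Htra1 rose by 1.19 (SE 0.13, 95% interval 0.89 to 1.48, limma adjusted p = 0.000103), and stayed between 1.06 and 1.32 when 1 sample was left out. The controls of the lines overlapped, with a log2 difference of −0.09 (95% interval −0.40 to 0.23) that was 0.13 after quantile normalization. Whether the E0771 and E0771-LG effects differ was not tested.

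Htra1 was lower in MMTV-PyMT tumors than in each cell group. Mean RPKM was 2.57 ± 1.47 in MMTV-PyMT 3B10, 3.1 ± 0.224 in MMTV-PyMT C44, 12.9 ± 2.37 in E0771-LGshCtrl, 13.5 ± 0.802 in E0771shCtrl, 29 ± 0.794 in E0771-LGshPTN and 48.4 ± 1.8 in E0771shPTN. The MMTV-PyMT groups overlapped with each other, as did the controls of the cell lines, and no other neighbours did. In MMTV-PyMT it was 3.27, 3.12 and 3.08 log2 CPM with C44 and 3.51, 1.56 and 2.98 with 3B10, a difference of −0.47 (95% interval −1.57 to 0.62, limma adjusted p = 1) that was 0.09 without 3B10 replicate 2. In 4T1 it was 7.94, 7.82 and 7.39 with C44 and 7.60, 7.95 and 8.13 with 3B10, a difference of 0.17 (95% interval −0.27 to 0.62, limma adjusted p = 0.953).

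Of 16 other HtrA proteases and matrix substrates 11 were in the table. In E0771 knockdown 3 of 8 rose and 2 fell (median 0.13), among them the proteoglycan Bgn at 2.36 (SE 0.45, limma adjusted p = 0.0045), Htra3 at 1.87 (SE 0.26, adjusted p = 0.000948), Tgfb2 at 1.53 (SE 0.20, adjusted p = 0.00065) and Tgfb1 at −1.01 (SE 0.17, adjusted p = 0.00273). Bgn averaged only −1.39 log2 CPM in E0771shCtrl and passed the filter through the shPTN group. In E0771-LG knockdown 3 of 9 rose and 2 fell (median 0.49), with Tgfb3 at 1.76 (SE 0.37, limma adjusted p = 0.00309), the proteoglycan Dcn at 1.64 (SE 0.62, adjusted p = 0.0486), Tgfb2 at −0.94 (SE 0.27, adjusted p = 0.0164) and mitochondrial Htra2 at 0.49 (SE 0.10, adjusted p = 0.00328). Htra3 had 1.28 there and did not pass (limma adjusted p = 0.0686). The 5 calls became 2 without E0771-LGshCtrl replicate 3, without E0771-LGshPTN replicate 2 and without E0771-LGshPTN replicate 3. In the controls 2 of 7 were higher in E0771-LG and 4 lower.

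The order of the 5 genes per kilobase differed between groups. In E0771shCtrl mean RPKM fell from Htra1 at 13.5 through Serpinf1 at 0.409, Sod3 at 0.221 and Cp at 0.091 to Agt at 0.0102. In E0771shPTN the order was the same, and Sod3 at 2.88 ± 0.842 and Cp at 2.2 ± 0.596 lay within their spread. In MMTV-PyMT C44 Cp was first at 101, followed by Serpinf1 at 13.1, Agt at 11.3, Sod3 at 8.61 and Htra1 at 3.1, with the middle 3 within their spread. The place of Sod3 above Htra1 rests on replicate 3, with Sod3 at 3.31, 2.46 and 20.1 RPKM in replicates 1 to 3 and Htra1 at 3.35, 3.01 and 2.92. In 4T1, off the log scale and above the lowest value of the sample, the C44 means were 424 ± 95.4 for Cp, 213 ± 40.8 for Htra1, 83.7 ± 29.8 for Serpinf1 and 6.12 ± 0.544 for Sod3, with Agt near 0. With 3B10, Cp at 250 ± 58.1 and Htra1 at 240 ± 43.4 lay within their spread.

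Ceruloplasmin is an acute-phase protein, and 29 others and their regulators were read as a list, with 20 in the table. In E0771 knockdown 1 of 11 tested rose and 2 fell (median −0.07): Il1r1 rose by 0.70 (SE 0.11, limma adjusted p = 0.00205), and the iron-binding lipocalin Lcn2 fell by 2.04 (SE 0.53, adjusted p = 0.0243) and the receptor Osmr by 0.80. In E0771-LG knockdown 0 of 11 rose and 6 fell (median −0.54), among them complement C3, which fell by 2.14 (SE 0.63, limma adjusted p = 0.0333), Saa3, which fell by 1.86 (SE 0.30, adjusted p = 0.00083), Osmr, which fell by 0.97, and the receptor subunit Il6st, which fell by 0.92 (SE 0.09, adjusted p = 4.43e-05). In the controls 6 of 11 were higher in E0771-LG and 0 lower (median 0.91), with Saa3 at 3.78 (SE 0.43, limma adjusted p = 8.97e-05), Lcn2 at 3.08 (SE 0.67, adjusted p = 0.00748) and Cebpd at 2.47 (SE 0.17, adjusted p = 4.49e-06). Cp was also higher in these E0771-LG controls, which is a description, since the E0771shCtrl samples also chose it. In E0771-LG knockdown Cp was at 0.05, or −0.17 after quantile normalization. Whether Cp follows this list was not tested.

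**Figure D4:**
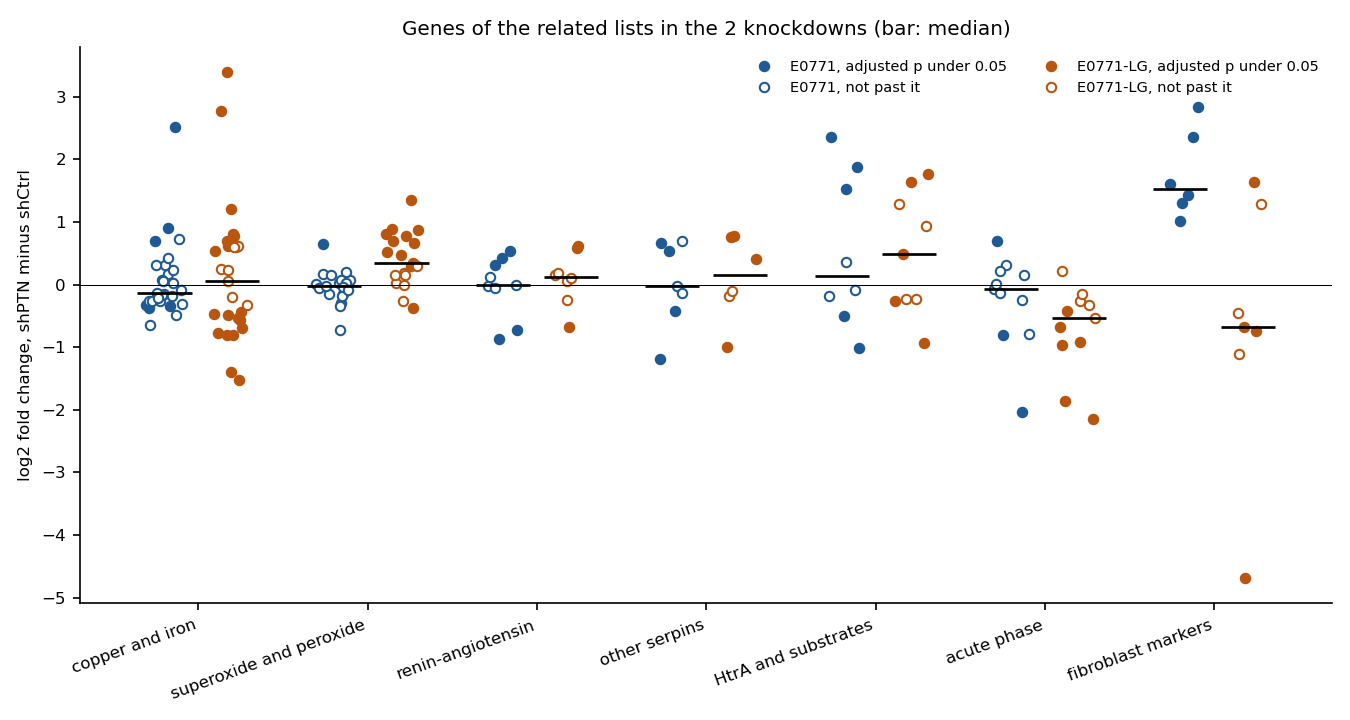
Log2 fold change of each tested gene of 6 related lists and of the fibroblast markers in the E0771 and E0771-LG knockdowns, without the 5 genes, with filled points for limma adjusted p under 0.05 and a bar at the median. The median of the fibroblast markers is 1.52 in E0771 and −0.68 in E0771-LG, and that of the acute-phase list −0.07 and −0.54.

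In tumors 0 genes of these 7 lists were called in either direction by limma. At unadjusted p under 0.05, which 307 of 11361 genes met in MMTV-PyMT (2.7%) and 719 of 11467 in 4T1 (6.27%), MMTV-PyMT had 0 of 28 copper and iron genes, 0 of 21 superoxide and peroxide genes, 1 of 10 renin-angiotensin genes, 1 of 10 serpins, 0 of 4 receptors, 2 of 11 HtrA and matrix genes and 3 of 20 acute-phase genes. In 4T1 the counts in that order were 2 of 31, 2 of 21, 3 of 9, 1 of 11, 1 of 4, 1 of 11 and 4 of 20.

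Of 12 fibroblast markers 11 were in the table, and in E0771 knockdown 6 of 6 tested rose, beside 8.89% of all genes, with a median of 1.52: Col3a1 by 2.83 (SE 0.14, limma adjusted p = 2.02e-06), Col1a2 by 2.36, Pdgfrb by 1.61 and Pdgfra by 1.43. The other 5 were below the filter and not tested, with log2 differences of −1.43 for Dcn, 2.75 for Pdpn, 1.91 for Postn, 1.09 for Lum and 0.56 for Thy1, so Dcn lay in the opposite direction. The 11 summed to 87.4, 118 and 102 CPM in E0771shCtrl, led by Pdgfra, and to 367, 333 and 367 in E0771shPTN, led by Col3a1. Lum and Thy1 were at 0 reads in each E0771shCtrl sample, with Postn at 0 in replicates 1 and 2 and Pdpn in replicate 1. Thy1 was at 0 in E0771shPTN replicates 1 and 2, with Dcn and Lum also at 0 in replicate 2, and none was at 0 in replicate 3. In E0771-LG knockdown 1 of 7 rose and 3 fell (median −0.68), with Col1a1 at −4.68 (SE 0.46, limma adjusted p = 5.42e-05), and the sums were 117, 185 and 142 in shCtrl and 77.6, 86.2 and 93.5 in shPTN, led by Pdgfra, with Thy1 at 0 in all 6, Postn in 4 and Lum in 3. The sums were thus higher with shPTN in E0771 and lower in E0771-LG. Serpinf1 and Agt had the same order, but their direction in E0771 follows from how they were chosen. In E0771-LG the groups overlapped for Cp and Sod3, and Htra1 was higher with shPTN. The part of the fibroblast markers in the values of the 5 genes was not tested.

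Markers of other cell types were also read in the cell samples. C1qa was at 0 reads in all 12 cell samples, and the 8 macrophage markers summed to 10.8, 25.5 and 19.1 CPM in E0771shCtrl, 11.6, 10.2 and 9.53 in E0771shPTN, 22.4, 24.1 and 22.5 in E0771-LGshCtrl and 12.5, 15.5 and 16.9 in E0771-LGshPTN, led by Cd68 or Cd14. Of the 8 epithelial markers 2 to 4 were at 0 in each cell sample, among them Cldn4 in all 12 and Krt19 in all but E0771-LGshPTN. Their sums, led by Krt8, were 99.3, 114 and 107 in E0771shCtrl, 116, 99.6 and 109 in E0771shPTN, 158, 204 and 164 in E0771-LGshCtrl and 424, 564 and 516 in E0771-LGshPTN, so they were higher in E0771-LGshPTN, where Htra1 was higher and Serpinf1 lower than in E0771-LGshCtrl. By limma at adjusted p under 0.05, 3 of 3 epithelial markers tested rose in E0771-LG knockdown and 0 of 2 in E0771 knockdown, where 1 of them had an unadjusted p under 0.05. In the E0771 and E0771-LG knockdowns, the counts higher and lower were 0 and 0 of 2 and 1 and 2 of 3 for macrophage markers, and 2 and 0 of 2 and 0 and 1 of 2 for leukocyte markers. The 4 leukocyte markers summed to 15.4, 21.4 and 19.6 CPM in E0771shCtrl and 47.3, 32.3 and 38.3 in E0771shPTN, led by Coro1a, and to 91.6, 88.3 and 88.6 in E0771-LGshCtrl and 47.4, 52.9 and 55.9 in E0771-LGshPTN, led by Laptm5. Among them Ptprc was at 0 in 6 of the 12 samples and Cd53 in E0771shCtrl replicate 1. These sums too were higher with shPTN in E0771 and lower in E0771-LG. The counts were 1 and 0 of 2 and 1 and 0 of 3 for endothelial markers, and 1 and 0 of 2 and 0 and 1 of 2 for muscle markers. In E0771-LG the 6 endothelial markers summed to 3.76, 8.83 and 6.02 CPM in shCtrl and 11.1, 15.1 and 10.6 in shPTN. Each shPTN sum was the higher, as was Htra1. Tie1 led in shCtrl and Esam in shPTN, with Emcn at 0 in all but shPTN replicate 2. In E0771 the sums were 16.3, 17.7 and 18.5 in shCtrl and 19.1, 16.1 and 17.7 in shPTN, which overlapped. The 5 muscle markers, with Myh4 at 0 in all 12 samples and Tnnt3 in 9, summed to 5.39, 7.2 and 6.74 CPM in E0771shCtrl and 14.7, 13.5 and 15 in E0771shPTN, led by Actn3. Their sums in E0771-LG were 5.38, 4.03 and 2.85 in shCtrl and 3.22, 3.27 and 3.33 in shPTN, which overlapped. The single adipocyte marker of the table was not called in E0771 and fell in E0771-LG, and 0 of 6 hepatocyte markers were in the table. Their part in the values of the 5 genes was not tested.

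Genes next to the 5 on the chromosome are given as a description. Hps3, which overlaps Cp, and Fgfr2, which overlaps Htra1, were left out. Of the 20 nearest other protein-coding genes of the table, 2 on each side, 18 were tested in E0771 knockdown. Of these 1 rose and 4 fell, with log2 fold changes between −0.94 and 0.49 and a median of 0.01. In E0771-LG knockdown 19 were tested, 0 rose and 8 fell, between −2.88 (Ppargc1a, beside Sod3) and 0.43, with a median of −0.21. Over all genes, 8.89% rose and 11.7% fell in E0771 knockdown (median −0.03), and 24.3% and 22.1% in E0771-LG knockdown (median 0.05). Beside Serpinf1, which fell by 0.75, Wdr81 at 18.2 kb fell by 0.81 (limma adjusted p = 0.00335) and Prpf8 at 64.1 kb by 1.03 (adjusted p = 7.87e-05), both on 1 side of it. On the other side Smyd4 at 4.06 kb, the nearest of the 4, was at −0.21 (adjusted p = 0.332) and Rpa1 at 61.4 kb at 0.04 (adjusted p = 0.722), and neither passed. In E0771, where Serpinf1 was 4.33 higher, Wdr81 was at 0.33, Prpf8 at 0.08, Smyd4 at 0.37 and Rpa1 at 0.10, and none passed.

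**Figure D5:**
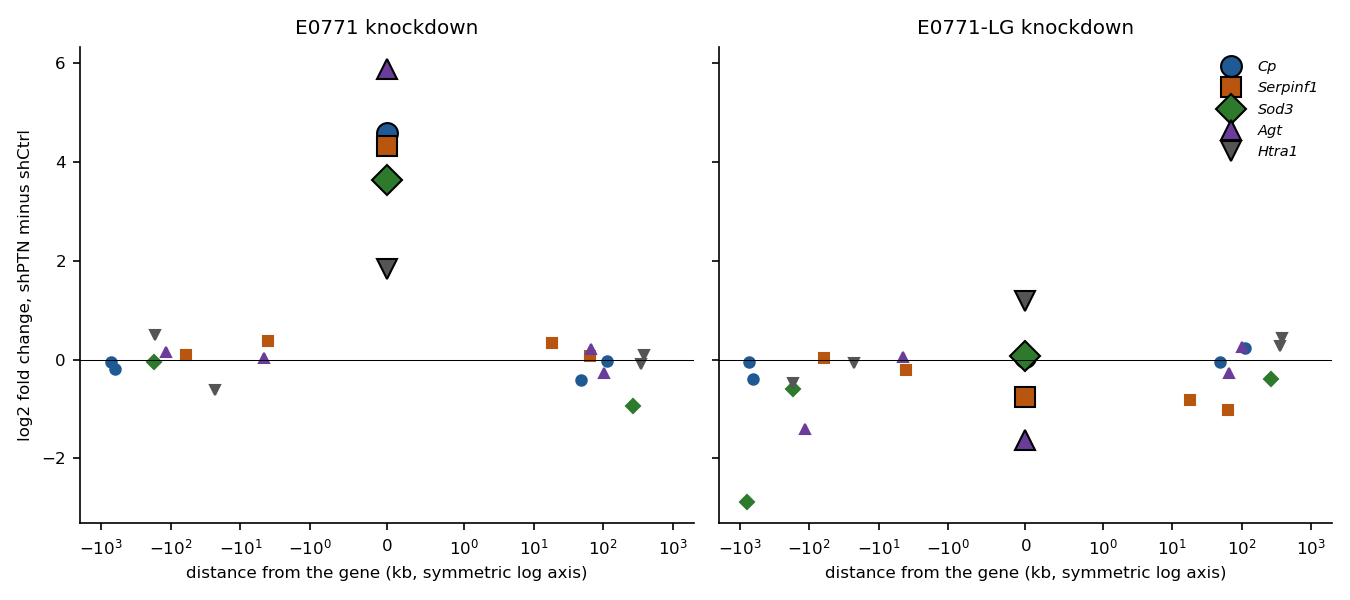
Log2 fold change in the E0771 and E0771-LG knockdowns of the 5 genes (large symbols at 0) and of their tested protein-coding neighbours. These are the genes nearest on each side without overlap, by distance in kb on a symmetric log axis. Neighbours lie between −0.94 and 0.49 in E0771 and between −2.88 and 0.43 in E0771-LG, where some lie lower than Serpinf1 at −0.75. The 5 genes were chosen by the E0771 contrast, so their distance from the neighbours there follows from that choice.

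The pattern of each gene over samples was compared with that of all other genes tested in cells by Pearson's r of log2 values, as a description. Samples share lines and constructs, and genes of a sample share its library. Over the 12 cell samples, which include those that chose the genes, Cp was most like Spsb4 and Sptlc2 (r = 0.975 each) and Apold1 (0.949), Sod3 most like Prxl2a (0.979), Serpinf1 (0.960) and Fam167b (0.956), and Serpinf1 most like Atp9a (0.977), Prxl2a (0.964) and Sod3. Agt was most like Serpinf1 (0.931), Cp (0.922) and Nrp2 (0.921), whereas Htra1 was most like Smarcd3 (0.966), the copper enzyme Loxl2 (0.958) and Dusp1 (0.950). Between Htra1 and the others r ran lower, from 0.563 with Serpinf1 to 0.754 with Cp. Over the 6 E0771-LG samples alone, Cp and Serpinf1 had r = 0.214, down from 0.945 over 12. Htra1 had r = −0.827 with Serpinf1 and −0.891 with Agt. The highest values between members there were 0.679 for Cp with Sod3 and 0.656 for Agt with Serpinf1. The most similar genes in those 6 samples were others: Sema4g (0.989), Rassf4 and Pax9 for Cp, Tm7sf2 (0.983), Anapc2 and Spata6 for Sod3, Cand2 (0.996), Nars and Selenoo for Serpinf1, Slx4ip (0.994), Rmdn3 and Adam8 for Agt, and Auh, Pde6d and Arhgap32 (0.998 each) for Htra1.

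Among the 924 genes that rose in E0771 knockdown, 890 were tested in E0771-LG knockdown, where 209 rose (23.5% of the 890, and 8.26% of the 2531 that rose in E0771-LG) and 191 fell (21.5%), with a median of 0.04 beside 0.05 over all genes. Htra1 was among the 209 and Serpinf1 among the 191. Of the 50 with the largest increases in E0771 knockdown, which include the other 4 members, 37 were tested in E0771-LG, where 12 rose and 7 fell.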

How the data were processed

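RNA was measured by RNA sequencing in 24 samples. The authors aligned reads with HISAT2/Stringtie to mm10 (GRCm38), counted them with featureCounts (Rsubread) and used edgeR and limma, with versions not given, and deposited 1 table of log2 values for 12091 genes. The step that made these log2 values is not stated. In 18 samples they were log2 CPM after adding 0.5 reads, since 100% of them gave whole read numbers within 0.01 of a read. In the 6 4T1 samples 2.514 to 2.804% did. The mean 4T1 value minus the mean E0771-LG value fell with gene length, with a slope of −1.17 per log2 of exon length.

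Because the unit was log2, each comparison was fitted to the deposited values of its 6 samples with limma 3.58.1 in R 4.3.3 (trend and robust), over genes of at least 1 in at least 3 samples, with Benjamini-Hochberg adjustment over all of them, after tests on simulated data. Read ratios have 95% exact intervals for counting error. Exact permutation tests used scipy 1.17.1, tables pandas 2.3.3 and numpy 2.4.6 in Python 3.11.15, and plots matplotlib 3.10.9. The members and the 7 gene lists and 8 marker lists were chosen with earlier results of these data known. Named list genes were at most 4 per list and comparison, those with the largest differences among genes past the threshold. Genes whose role needed naming, or that were named in another comparison, were added. Alternatives were other filters, offsets, scalings, samples in a fit, voom on recovered reads, a stricter threshold, a replicate block and leaving out each sample.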

Additional observations from a re-analysis of the deposited data

Results flagged for a closer look

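In the E0771 and E0771-LG knockdowns, Serpinf1 and Agt differed in opposite directions, with every shPTN sample on 1 side of every control in each line. Their direction in E0771 follows from how the genes were chosen, so only their lower values in E0771-LG are left to read. By calls, 22.1% of all genes tested fell in E0771-LG knockdown, and Agt was below the filter there. The log2 difference of Serpinf1 was 4.33 in E0771 and −0.75 in E0771-LG, so that the second minus the first was −5.09. That of Agt was 5.89 and −1.64, or −7.53, from 1 read over the E0771shCtrl samples. The size of this gap depends on the offset, since the 5.89 became 1.73 with a pseudocount of 1. By calls, 191 of the 890 genes that rose in E0771 and were tested in E0771-LG fell there (21.5%). The share of all genes in opposite directions without overlap is not given here. Whether the lines differ was not tested.

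Other genes named above lay in opposite directions without overlap in either line, by their samples and not by calls. E0771-LG minus E0771, the gap in log2 fold change was −5.70 for Col1a1, −2.10 for Pdgfra and −2.72 for Pdgfrb among the fibroblast markers. It was −5.44 for Bgn, 3.07 for Dcn and 1.00 for Htra2 among HtrA proteases and substrates, −2.29 for Tfrc, 1.21 for Serpinb6a and −1.38 for Il1r1. It was −3.19 for Acta1 and −2.19 for Laptm5 among muscle and leukocyte markers. Among genes named for their place or pattern it was −4.26 for Ppargc1a, −1.17 for Cand2, −2.70 for Fam167b and −2.76 for Nrp2. Of these genes, Pdgfrb and Fam167b did not pass in E0771-LG (limma adjusted p = 0.0801 and 0.0928), and Dcn, Acta1 and Ppargc1a in E0771 and Bgn in E0771-LG were below the filter and not tested. None of these differences between the lines was tested.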

How the results depend on the processing

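Under the alternatives, 427 log2 fold changes of the 5 genes and Ptn counted as the same. They kept direction and side of the threshold or, untested, stayed within the SD of replicates. Another 11 untested values moved further, 13 tested values changed sign and 2 lost their call. The untested Htra1 value of the comparison of controls, −0.09, also changed sign. It was 0.13 after quantile normalization and 0.03 without E0771-LGshCtrl replicate 1. Counts stayed within 1.5 times those given above in 904 cases and did not in 68. Serpinf1 in E0771-LG kept its direction throughout and lost its call with all 24 samples in 1 fit and at adjusted p under 0.01. Voom was not run in 4T1, which has no recovered reads. The causes of the shifts below were not tested.

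With all 24 samples in 1 fit, 912 genes changed in E0771 knockdown and 6 in 4T1 3B10, 0 of the 5 genes were called lower in E0771-LG knockdown, and 1 other serpin and 1 receptor of the Serpinf1 protein were called there. At adjusted p under 0.01, 971 genes changed in E0771 knockdown and 3016 in E0771-LG knockdown, with 0 of the 5 genes called lower, 1 receptor and 2 HtrA proteases and substrates in the latter. With no filter on low values 2 of the 5 genes were called lower in E0771-LG knockdown, with 1 receptor. A filter at 3 left 3 calls in the HtrA list in E0771-LG knockdown. Quantile normalization left 3 there and 1 receptor, and turned the log2 fold changes in E0771-LG knockdown to −0.17 for Cp and −0.13 for Sod3.

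With 1 sample left out, counts ran from 1171 to 2166 genes in E0771 knockdown, 3245 to 5122 in E0771-LG knockdown, 0 to 2 in 4T1 3B10, and in E0771-LG knockdown 1 to 2 receptors and 2 to 6 genes of the HtrA list. In E0771 knockdown they ran from 0 to 2 receptors, 4 to 5 genes of the HtrA list, 2 to 9 copper and iron genes, 1 to 3 superoxide and peroxide genes and 3 to 5 renin-angiotensin genes, and in the comparison of controls from 1 to 3 receptors. Log2 fold changes ran from −0.11 to 0.32 for Cp and −0.07 to 0.20 for Sod3 in E0771-LG knockdown, from −0.22 to 0.41 for Serpinf1 and −0.88 to 0.09 for Htra1 in MMTV-PyMT, and from −0.04 to 0.71 for Serpinf1 and −0.20 to 0.12 for Sod3 in 4T1.

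Samples were not paired by replicate number in the fits. The correlation of deviations of same-numbered samples had both signs in each comparison. It was 0.158, 0.237 and −0.117 in E0771-LG knockdown and −0.327, 0.436 and −0.253 in 4T1. Whether same-numbered samples shared a culture or batch is not given. A replicate block gave 2450 genes in E0771 and 5012 in E0771-LG knockdown, 0 in each tumor model, and −0.75 (limma adjusted p = 0.0133) for Serpinf1 in E0771-LG. In 4T1 the depth is unknown. Genes with few reads have differences that move with the offset. Among the list and marker genes, Slc39a8 averaged −2.32 log2 CPM in E0771-LGshCtrl, Bgn −1.39 in E0771shCtrl and Col1a1 −1.28 in E0771-LGshPTN. Cp, Sod3 and Serpinf1 had 10 to 22 reads per sample in E0771shCtrl and Agt 0 or 1. In the comparison of controls, a pseudocount of 1 gave 1.88 for Cp, 2.87 for Serpinf1 and 2.29 for Sod3.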
